A study of Homo sapiens with 30 samples.

Results

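FTO and the ALKBH proteins ALKBH1 to ALKBH8 form the human family of AlkB-like demethylases and related oxygenases. The 9 genes were taken by symbol from the deposited table of start-region levels. The rule itself uses no measured value, although earlier results of these data were known when the family was chosen. All 9 listed symbols had a row, of 16009 rows in all. None of the 9 is set aside below for low values, although ALKBH6 and ALKBH7 had few reads.

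These enzymes use iron and 2-oxoglutarate to oxidise methyl groups, which then leave as formaldehyde. FTO removes m6A from within mRNA and m6Am from the nucleotide next to the cap, and ALKBH5 removes m6A. Several relatives act on DNA or tRNA, and others act on proteins or are poorly described. PCIF1 is the methyltransferase that writes m6Am on mRNAs whose transcribed sequence begins with A. An anti-m6A antibody also binds m6Am, so a capped 5′ fragment of an mRNA can be recovered through either mark.

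The cells were MEL624, a human melanoma line. The study compared PCIF1 KO cells with control cells that were wild type and carried a random guide RNA. Poly(A) RNA was fragmented and treated with an exonuclease that spares capped ends (m6Am-Exo-Seq), and was sequenced either as input or after immunoprecipitation (IP). There were 3 KO IPs, 3 KO inputs, 3 control IPs and 3 control inputs, and all IPs used antibody 4, a mouse monoclonal anti-m6A antibody. The labels call the 3 preparations of a group biological replicates, without stating if the KO preparations are of 1 clone or several. The p-values therefore measure the spread between these preparations.

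The KO IPs were the shallowest group, with 2032714 reads on average behind the listed rows (range 1753164 to 2177874). The KO inputs averaged 3243409 reads, the control IPs 4283508 and the control inputs 3620471. A chi-square per degree of freedom was highest for KO input 3, at 4.46 and 4.08 against KO inputs 1 and 2. The other replicate pairs gave 1.89 to 3.40, the top value between KO IPs 1 and 3. These values are not corrected for depth, which was lowest in the KO IPs. Leaving out KO input 3 ended the calls of FTO in KO enrichment and in the difference. It also ended the call of ALKBH2 in the inputs, as given with each. Of 13 melanocyte lineage genes, 5 had a row, while PMEL, MLANA, TYR and SOX10 had none. Among the 5, MITF was at 10.1 CPM (reads scaled to library size) in KO inputs and 10.3 CPM in control inputs. GPNMB was at 26.0 CPM in KO inputs and 41.2 CPM in control inputs, and MC1R at 11.7 and 16.2 CPM. The lowest was EDNRB, at 1.47 CPM in KO inputs and 1.34 CPM in control inputs. All 6 genes of a dedifferentiated melanoma list had a row. The highest was AXL, at 899 CPM in KO inputs and 936 CPM in control inputs. The lowest was NGFR, at 1.28 CPM in KO inputs and 1.04 CPM in control inputs. Between them, SOX9 was at 23.1 CPM in KO inputs and 41.2 CPM in control inputs. WNT5A was at 3.45 CPM in KO inputs and 5.99 CPM in control inputs, and ZEB1 at 3.62 and 3.70 CPM. Lists for keratinocytes, leukocytes and endothelial cells had no row at all, and the fibroblast list had 1 of 6. The start region of PCIF1 itself was at 75.2 ± 4.16 CPM in KO inputs and 53.3 ± 4.27 CPM in control inputs (SD, n = 3 each). It may lie outside the edited part and so checks nothing about the knockout.

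The annotated starts of the 9 genes show which nucleotide would stand next to the cap, and are given here because m6Am requires an A there. Each line is 30 bases of RefSeq sequence (GRCh38.p14) in the direction of transcription, 5′ to 3′, with the annotated start base in capitals. All 9 genes matched, and the start base was the same in RefSeq and in the GENCODE 44 canonical transcript. The lines cover chr16:53704141-53704170 (plus strand) for FTO, chr17:18183813-18183842 (plus) for ALKBH5, chr12:109093458-109093487 (minus) for ALKBH2, chr11:43880816-43880845 (plus) for ALKBH3, chr14:77708009-77708038 (minus) for ALKBH1, chr11:107565721-107565750 (minus) for ALKBH8, chr7:102464849-102464878 (minus) for ALKBH4, chr19:36014199-36014228 (minus) for ALKBH6 and chr19:6372779-6372808 (plus) for ALKBH7.
FTO: ggatctacgcagcttGcggtggcgaaggcg
ALKBH5: ctgcgcgtgcgcggtGaggagcccgctaag
ALKBH2: gattcgctggggcgcGtctttcccaccacg
ALKBH3: tggagtcggtgcttcActcttaaggttccg
ALKBH1: atctgcttccggatcAgagggtataggccg
ALKBH8: tgggaaatgtagtgcAgttttctccaacat
ALKBH4: cccccacggccgcgcCtgcgcactggccac
ALKBH6: tgggagggggatgggGatgttgaatttgga
ALKBH7: gttccccaaccctgcCctctctcatgaccc
ALKBH1, ALKBH3 and ALKBH8 start with A, FTO, ALKBH2, ALKBH5 and ALKBH6 with G, and ALKBH4 and ALKBH7 with C. In all 3 genes that start with A the base before it is C. The pair CA at this place, read on the transcribed strand, stands in 3498 of 10543 promoters of the same reference table (33.2%). Annotated starts need not be the starts used in MEL624 cells. For FTO the canonical start lies 2464 bases inside the 5′ end of the gene record, and for ALKBH5 it lies 750 bases inside, while the window counted for the deposited table is not given in the sources used here.

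Loss of PCIF1 went with opposite changes within the family. Enrichment is the log2 level in IPs minus that in inputs of the same genotype, and the comparison that the design turns on is KO enrichment minus control enrichment. It was higher in KO cells for ALKBH5, ALKBH2 and FTO, and lower for ALKBH1, ALKBH4 and ALKBH3. ALKBH8, ALKBH6 and ALKBH7 did not pass the test. These are 6 of 9 genes at a Benjamini-Hochberg adjusted p under 0.05 (limma, all 16009 rows), against 28.8% of all rows, of which 13.0% were higher and 15.8% lower. Among rows with a mean log2 level of at least 3 the share called was 44.9%. The same 6 genes were called there, while ALKBH6 and ALKBH7 fell below that level. Leaving out any 1 of the 12 libraries gave 4 or 5 genes called, since FTO, ALKBH4 or both then missed the threshold. The median difference was 0.08 over the 9 genes and −0.06 over all rows on the log2 scale. Both signs were present among the genes called.

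**Figure D1:**
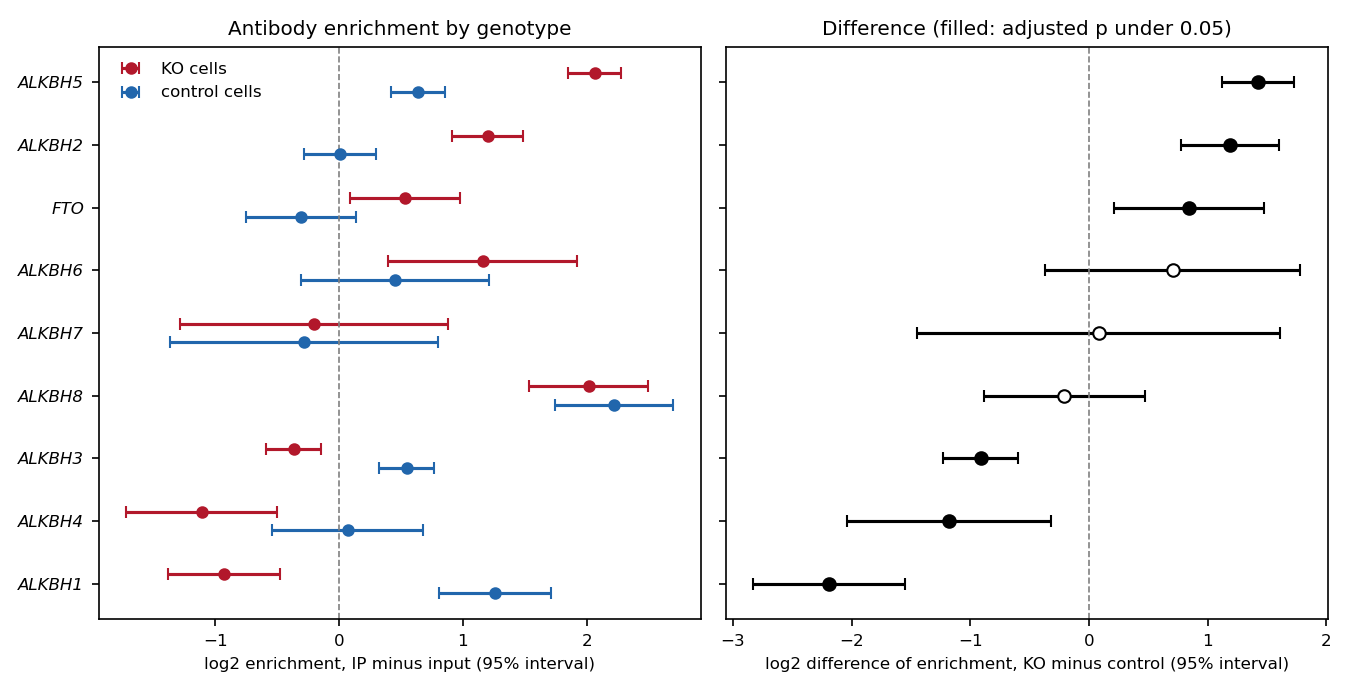
Antibody enrichment of the 9 genes. The left panel plots log2 enrichment (IP minus input) in KO cells and in control cells, and the right panel plots KO enrichment minus control enrichment (log2). Points are limma estimates and bars are 95% intervals that are not adjusted for the number of rows. Filled points on the right have an adjusted p under 0.05. Differences run from −2.19 for ALKBH1 to 1.43 for ALKBH5. Under centring on ribosomal protein mRNAs the difference for ALKBH7 turns negative (−0.49) and that for FTO is no longer called.

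ALKBH5, the m6A demethylase of mRNA, showed the largest higher difference of the 9 genes. Its start-region level was 412, 393 and 355 CPM in the KO IPs, against 81.9, 104 and 93.0 CPM in the KO inputs. The control IPs had 157, 143 and 166 CPM, against 97.9, 94.0 and 107 CPM in the control inputs. All 3 KO IPs lay above every other library, the control IPs came next, and the inputs of both genotypes overlapped at the bottom. Enrichment was 2.06 ± 0.10 in KO cells (SE, adjusted p = 2.32e-12, limma) and 0.64 ± 0.10 in control cells (adjusted p = 2.51e-05). The difference was 1.43 ± 0.15 (SE, n = 3 per group, 95% interval 1.12 to 1.73, adjusted p = 9.27e-07). It passed the test under all 19 alternatives, between 0.86 and 1.51. ALKBH5 lies on chromosome 17 at 18183078 to 18209954 (hg38, plus strand).

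FTO, which removes m6Am as well as m6A, changed less, and its call was not stable. Its level was 16.8, 13.7 and 12.1 CPM in the KO IPs, against 11.0, 10.6 and 7.87 CPM in the KO inputs. Control cells gave 9.39, 9.78 and 12.3 CPM in the IPs, against 13.8, 11.8 and 13.2 CPM in the inputs. The KO IPs lay above the KO inputs without overlap, whereas control IPs and control inputs overlapped, and in the order of the 4 group means each group's range overlapped that of its neighbour. FTO had 21 to 34 reads in a KO IP, 24 to 39 in a KO input, 37 to 48 in a control IP and 45 to 51 in a control input. Enrichment was 0.53 ± 0.21 in KO cells (SE, adjusted p = 0.0378, limma) and −0.31 ± 0.21 in control cells (adjusted p = 0.231), which turned to 0.88 (adjusted p = 0.00129) when libraries were centred on ribosomal protein mRNAs. The difference was 0.84 ± 0.30 (95% interval 0.21 to 1.47, adjusted p = 0.0423). It was called in 9 of 19 alternatives, with adjusted p between 0.0245 and 0.507. The call was lost, at differences of 0.69 to 0.91, without KO IP 1, KO IP 2, KO input 3, control IP 1, control IP 2 or any 1 control input. The KO enrichment was not called without KO IP 1 (0.41, adjusted p = 0.140), KO IP 2 (0.55, adjusted p = 0.0574) or KO input 3 (0.38, adjusted p = 0.160). FTO spans 53701692 to 54158512 on chromosome 16 (hg38, plus strand).

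The alkylation repair enzymes ALKBH2 and ALKBH3 moved in opposite directions. ALKBH2, which repairs methylated bases in double-stranded DNA, was at 114, 115 and 92.2 CPM in the KO IPs, against 45.7, 52.9 and 41.3 CPM in the KO inputs. In control cells it was at 62.3, 63.1 and 83.1 CPM in the IPs, against 79.6, 62.9 and 64.0 CPM in the inputs. The KO IPs were the highest libraries and the KO inputs the lowest, each apart from the rest, while control IPs and control inputs overlapped. Enrichment was 1.20 ± 0.14 in KO cells (SE, adjusted p = 3.35e-07, limma) and 0.01 ± 0.14 in control cells (adjusted p = 0.967). The difference was 1.19 ± 0.20 (95% interval 0.78 to 1.6, adjusted p = 0.000134), and it was called in all 19 alternatives, between 0.62 and 1.33. ALKBH2 lies on chromosome 12 at 109088188 to 109093631 (hg38, minus strand).

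ALKBH3, which removes methyl groups from single-stranded DNA and from RNA, was at 43.7, 42.0 and 38.4 CPM in the KO IPs, against 58.6, 49.6 and 52.1 CPM in the KO inputs. The control IPs had 80.9, 80.1 and 83.9 CPM, against 55.2, 56.4 and 56.1 CPM in the control inputs. The control IPs were the highest libraries and the KO IPs the lowest, with the inputs of both genotypes overlapping between them. Enrichment was −0.37 ± 0.11 in KO cells (SE, adjusted p = 0.00567, limma), a sign that turned to 0.25 (adjusted p = 0.10) when libraries were centred on ribosomal protein mRNAs, and 0.55 ± 0.11 in control cells (adjusted p = 0.000192). The difference was −0.91 ± 0.15 (95% interval −1.23 to −0.60, adjusted p = 0.000128). All 19 alternatives called it, between −1.48 and −0.84. ALKBH3 lies on chromosome 11 at 43880811 to 43920274 (hg38, plus strand).

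Of the members known chiefly for tRNA, ALKBH1 changed and ALKBH8 did not pass the test. ALKBH1, which demethylates tRNA adenosine and is also found in mitochondria, had the largest difference of all 9 genes in either direction. It was at 13.3, 10.3 and 8.09 CPM in the KO IPs, against 25.0, 19.8 and 15.3 CPM in the KO inputs. Control cells gave 50.9, 42.9 and 39.4 CPM in the IPs, against 23.2, 18.0 and 15.0 CPM in the inputs. Every control IP lay above, and every KO IP below, all 6 inputs, which overlapped between genotypes. Enrichment was −0.93 ± 0.22 in KO cells (SE, adjusted p = 0.00105, limma) and 1.26 ± 0.22 in control cells (adjusted p = 4.82e-05). The difference was −2.19 ± 0.31 (95% interval −2.83 to −1.55, adjusted p = 2.51e-05), which placed ALKBH1 at rank 260 from the lowest of 16009 rows. It was called in all 19 alternatives, between −2.76 and −2.01, although the enrichment within KO cells was no longer called when centred on ribosomal protein mRNAs (−0.31, adjusted p = 0.214). ALKBH1 lies on chromosome 14 at 77672404 to 77708023 (hg38, minus strand).

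ALKBH8, which carries a methyltransferase domain beside the oxygenase and modifies the wobble uridine of tRNAs, was strongly enriched in both genotypes. It was at 25.6, 28.3 and 34.4 CPM in the KO IPs, against 6.39, 5.49 and 10.8 CPM in the KO inputs. In control cells it was at 35.9, 32.9 and 32.3 CPM in the IPs, against 8.94, 6.49 and 6.50 CPM in the inputs. All 6 IPs lay above all 6 inputs, and the genotypes overlapped within each kind of library. Enrichment was 2.01 ± 0.23 in KO cells (SE, adjusted p = 2.62e-07, limma) and 2.22 ± 0.23 in control cells (adjusted p = 7.22e-08). The difference was −0.21 ± 0.32 with a 95% interval from −0.88 to 0.47 (adjusted p = 0.676). The −2.19 measured for ALKBH1 lies outside this interval. The −0.91 of ALKBH3 lies only just beyond its lower end, and the interval of ALKBH3 (−1.23 to −0.60) overlaps it. Centred on ribosomal protein mRNAs, the difference of ALKBH8 was −0.77 ± 0.355 (adjusted p = 0.0854), and that of ALKBH3 was −1.48. ALKBH8 and ALKBH3 were not tested against each other, so a smaller change in ALKBH8 than in ALKBH3 is not shown. ALKBH8 lies on chromosome 11 at 107502727 to 107565742 (hg38, minus strand).

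Among the remaining members ALKBH4, reported to demethylate a lysine of actin, was at 5.47, 8.84 and 3.51 CPM in the KO IPs, against 13.0, 12.5 and 10.5 CPM in the KO inputs. The control IPs had 16.8, 9.78 and 11.3 CPM, against 11.4, 13.4 and 10.6 CPM in the control inputs. The 3 KO IPs, with 11, 18 and 6 reads, lay below all other libraries, and the other 3 groups overlapped. Enrichment was −1.11 ± 0.29 in KO cells (SE, adjusted p = 0.00277, limma) and 0.07 ± 0.29 in control cells (adjusted p = 0.861). Centring on ribosomal protein mRNAs ended the KO call (−0.49, adjusted p = 0.168). The difference was −1.18 ± 0.41 (95% interval −2.04 to −0.32, adjusted p = 0.0376). It was called in 10 of 19 alternatives, with adjusted p between 0.00248 and 0.116. The call was lost, at differences of −1.24 to −0.85, without KO IP 1, KO IP 3, KO input 1, KO input 2, control IP 1, control IP 3, control input 1 or control input 3. It was also lost without a mean-variance trend (adjusted p = 0.0821). ALKBH4 lies on chromosome 7 at 102456238 to 102464863 (hg38, minus strand).

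ALKBH6, a poorly described member, was at 4.49, 6.41 and 5.80 CPM in the KO IPs, against 2.95, 2.51 and 2.03 CPM in the KO inputs. Control cells gave 4.97, 3.49 and 2.87 CPM in the IPs, against 3.03, 2.37 and 2.70 CPM in the inputs. The KO IPs lay above the KO inputs, whereas control IPs and control inputs overlapped. Enrichment was 1.16 ± 0.36 in KO cells (SE, adjusted p = 0.00986, limma) and 0.45 ± 0.36 in control cells (adjusted p = 0.307). The difference of 0.71 ± 0.51 was not called (95% interval −0.37 to 1.78, adjusted p = 0.331). ALKBH6 had 6 to 21 reads per library.

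ALKBH7, a mitochondrial protein linked to programmed necrosis, was at 2.04, 2.02 and 1.22 CPM in the KO IPs, against 1.51, 1.7 and 3.0 CPM in the KO inputs. In control cells it was at 1.71, 1.13 and 1.35 CPM in the IPs, against 2.49, 1.22 and 1.54 CPM in the inputs. All 4 groups overlapped, with 2 to 9 reads in a library. The difference was 0.08 ± 0.73 (SE, 95% interval −1.45 to 1.61, adjusted p = 0.948, limma), an interval that includes the values measured for ALKBH5 and ALKBH2. ALKBH6 (36009120 to 36014239, minus strand) and ALKBH7 (6372794 to 6375250, plus strand) both lie on chromosome 19 (hg38).

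**Figure D2:**
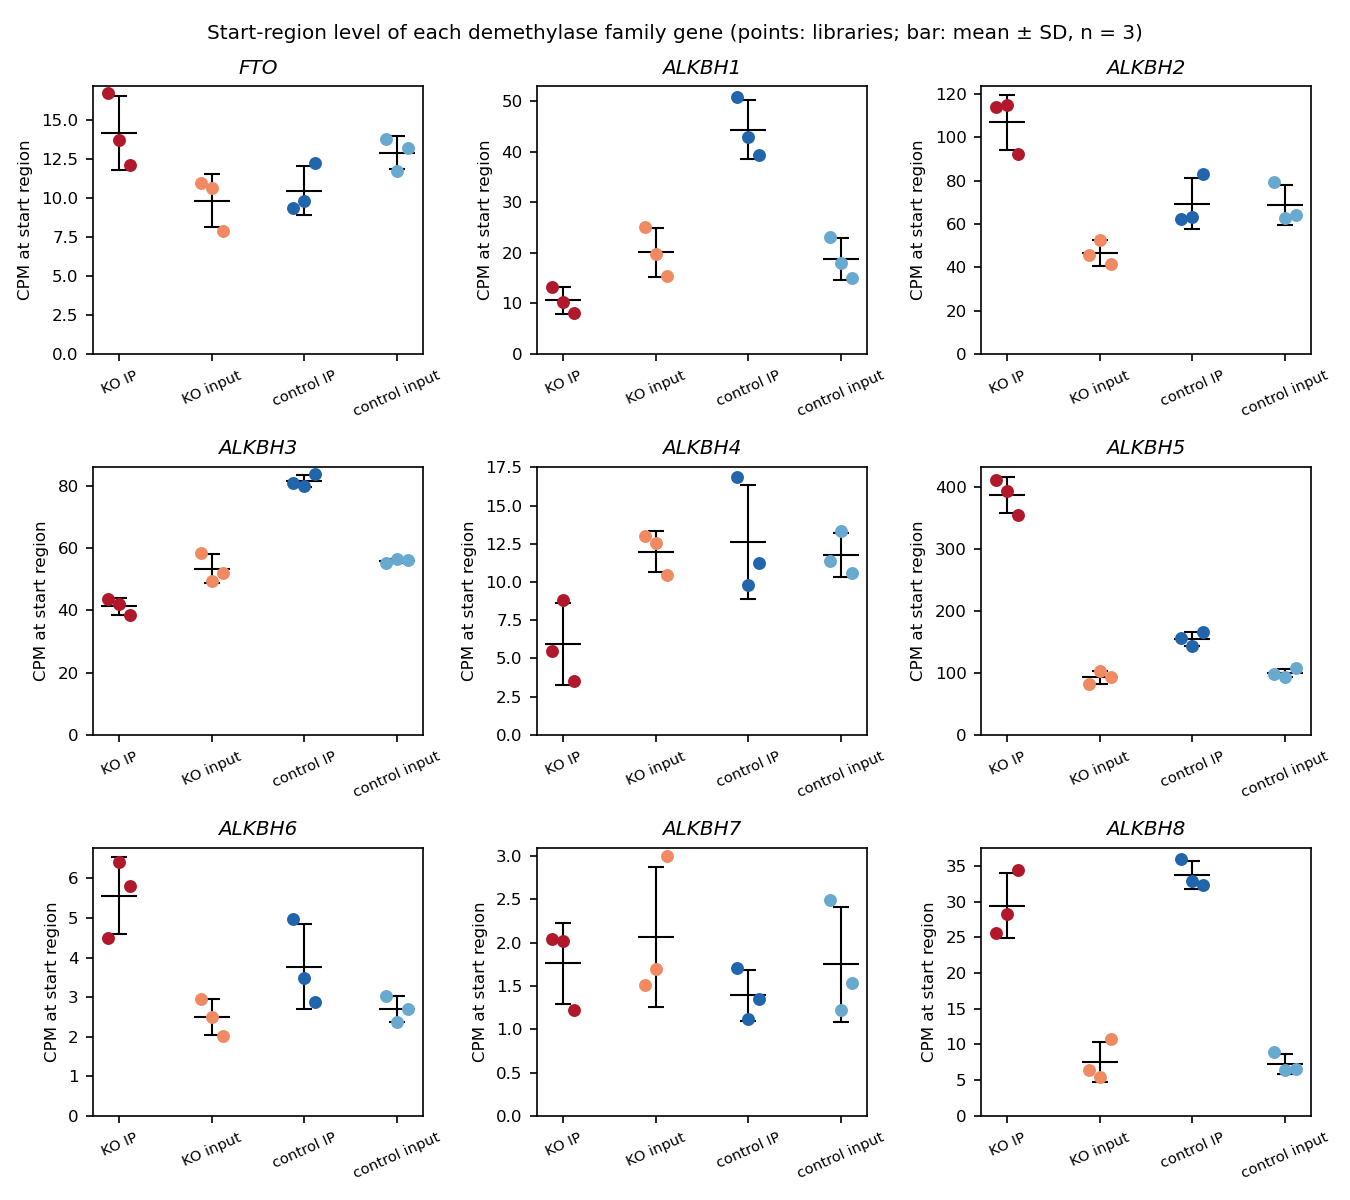
Start-region level of each gene in every library, in CPM on a linear axis that starts at 0 and differs between panels. Points are libraries, and bars give the mean ± SD of 3 libraries. For ALKBH5 the KO IPs sit between 355 and 412 CPM, above the control IPs at 143 to 166 CPM. For ALKBH1 the KO IPs sit between 8.09 and 13.3 CPM, below the control IPs at 39.4 to 50.9 CPM. For ALKBH8 all IPs sit above all inputs.

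The inputs, which hold the capped fragments before the antibody step, gave few calls between genotypes for this family. ALKBH2 fell to 46.6 ± 5.82 CPM in KO inputs, against 68.8 ± 9.37 CPM in control inputs (SD, n = 3 each), a log2 change of −0.56 ± 0.14 (SE, adjusted p = 0.0111, limma). It was the 1 gene of 9 called in the inputs, against 11.2% of all rows, with 5.56% higher and 5.67% lower. The 3 KO inputs of ALKBH2 and of FTO lay below the 3 control inputs, and such non-overlap in either direction held for 31.7% of all rows (15.7% higher and 16.0% lower). FTO averaged 9.83 ± 1.7 CPM in KO inputs and 12.9 ± 1.04 CPM in control inputs, a log2 change of −0.41 that was not called (adjusted p = 0.263). These lower inputs enter the higher differences of enrichment of ALKBH2 (1.19) and FTO (0.84). Centred on ribosomal protein mRNAs, ALKBH2 had an input change of −0.52 beside a difference of 0.62. The other 7 genes had input changes between −0.12 and 0.24, with adjusted p of 0.591 or more. Some of their 95% intervals were wide, at −0.84 to 1.32 for ALKBH7, −0.88 to 0.64 for ALKBH6 and −0.58 to 0.64 for ALKBH4. The input call of ALKBH2 was lost without KO input 3 (−0.48, adjusted p = 0.0570) or control input 1 (−0.45, adjusted p = 0.0779), and without a mean-variance trend (adjusted p = 0.0722). In bulk RNA, fewer cells that express a gene and less RNA per cell cannot be told apart.

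Within KO cells 8 of the 9 genes were called, 5 higher in IPs than in inputs (ALKBH5, ALKBH8, ALKBH2, ALKBH6 and FTO) and 3 lower (ALKBH4, ALKBH1 and ALKBH3). Of these, FTO was called in 16 of 20 alternatives, and ALKBH6 cannot be separated from an overlapping lncRNA, as described below. The background was high in this contrast, at 59.4% of all rows, of which 28.4% were higher and 31.0% lower. The IPs and inputs of the same 8 genes did not overlap, as for 61.3% of all rows (29.7% with higher and 31.6% with lower IPs). Within control cells 4 genes were called, all higher in IPs (ALKBH8, ALKBH1, ALKBH5 and ALKBH3), against 55.9% of all rows, with 27.7% higher and 28.2% lower. Centred on ribosomal protein mRNAs, 8 were called there, all higher, and 5 in KO cells, all higher. Of all 16009 rows, 10178 were then higher and 933 lower in control cells, and 7330 higher and 2356 lower in KO cells. In control cells the IPs and inputs of ALKBH8, ALKBH1, ALKBH5 and ALKBH3 did not overlap, against 66.5% of all rows (33.0% higher and 33.4% lower). The median enrichment of the 9 genes was 0.53 in KO cells and 0.45 in control cells, and that of all rows was −0.07 in KO cells and −0.01 in control cells. ALKBH5 and ALKBH8 were higher in the IPs of both genotypes, whereas ALKBH1 and ALKBH3 were higher in control IPs and lower in KO IPs than in the matching inputs, a pattern that for ALKBH3 turned under the centring described next.

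**Figure D3:**
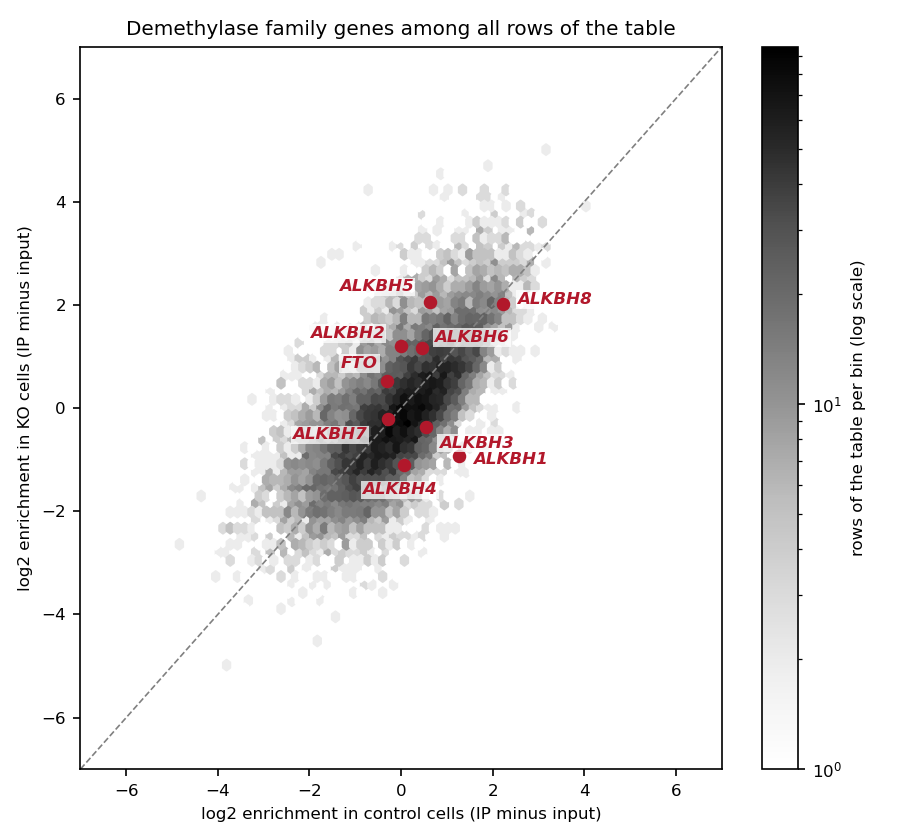
Enrichment of all 16009 rows and of the 9 genes, with control cells on the x axis and KO cells on the y axis (log2, IP minus input). Grey cells count rows on a log scale, red points are the 9 genes, and the dashed line marks equal enrichment. ALKBH5, ALKBH2 and FTO lie above the line, ALKBH1, ALKBH3 and ALKBH4 below it, and ALKBH8 close to it. Centring on ribosomal protein mRNAs would move ALKBH3 to 0.25 on the y axis and FTO to 0.88 on the x axis.

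Enrichment has no fixed zero, because each library is scaled to its own total. When libraries were instead centred on 77 ribosomal protein mRNAs, the median of all rows shifted to 0.55 for KO enrichment, 1.17 for control enrichment, −0.62 for the difference and −0.57 for the IP change. With that centring the rows higher and lower numbered 7330 and 2356 for KO enrichment, 10178 and 933 for control enrichment, and 785 and 6023 for the difference, against 4546 and 4966, 4429 and 4515, and 2083 and 2522 without it. The differences of ALKBH5 (0.86, adjusted p = 0.000614) and ALKBH2 (0.62, adjusted p = 0.0193) stayed above 0 and called. FTO, at 0.27 (adjusted p = 0.507), was no longer called, and ALKBH1, ALKBH4 and ALKBH3 remained called at −2.76, −1.75 and −1.48. ALKBH8 moved to −0.77 and missed the threshold (adjusted p = 0.0854). The order of the 9 differences does not depend on the centring, since it shifts all rows of a library by the same amount.

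Set directly against each other, the KO and control IPs differed for 5 of 9 genes, against 49.0% of all rows, with 23.0% higher and 26.0% lower. ALKBH5 was at 387 ± 29.1 CPM in KO IPs and 155 ± 11.6 CPM in control IPs (SD, n = 3 each), a log2 change of 1.32 ± 0.10 (SE, adjusted p = 5.25e-09, limma). ALKBH2 was higher by 0.63 ± 0.14 (adjusted p = 0.00094), a call that centring on ribosomal protein mRNAs ended (0.11, adjusted p = 0.557). ALKBH1 fell to 10.6 ± 2.62 CPM in KO IPs, against 44.4 ± 5.86 CPM in control IPs, a log2 change of −2.09 ± 0.22 (adjusted p = 1.77e-07). ALKBH4 changed by −1.15 ± 0.29 (adjusted p = 0.0029) and ALKBH3 by −0.98 ± 0.11 (adjusted p = 3.13e-07). The KO and control IPs of these 5 genes did not overlap, against 54.6% of all rows (26.0% higher and 28.6% lower). FTO, at 14.2 ± 2.36 CPM in KO IPs and 10.5 ± 1.56 CPM in control IPs, was not called (0.43, adjusted p = 0.0994, and −0.09 under that centring).

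The members were next set beside the base at their annotated start. Of the 3 genes that start with A, ALKBH1 and ALKBH3 were called lower in the difference and ALKBH8 was not called. Of the 4 that start with G, ALKBH5, ALKBH2 and FTO were called higher and ALKBH6 was not called. Of the 2 that start with C, ALKBH4 was called lower and ALKBH7 was not called. Over 12047 protein-coding rows the start base was A in 5549 (46.1%), with a median difference of −0.37, and 27.6% of them were called lower and 6.24% higher. It was G in 5061 (42.0%), with a median of −0.06, 13.8% lower and 11.8% higher. It was C in 1366 (11.3%), with a median of 0.10, 12.1% lower and 19.4% higher. ALKBH4 lay below the median of rows with its start base, and ALKBH5, ALKBH2 and FTO lay above theirs. Some close neighbours have another start base, since LRWD1 near ALKBH4 and a lncRNA that overlaps the start of ALKBH6 both start with A. Reads of these pairs may not be separable, as described next. Whether this bears on the values of ALKBH4 or ALKBH6 was not tested.

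Start regions of other genes lie close to those of several members, and the strand setting of the counting is not given in the sources used here, so that reads of such pairs may not be separable. SLIRP, which encodes an RNA-binding protein of mitochondrial mRNA, starts 80 bases from ALKBH1 on the opposite strand, and also with A. It was at 44.7, 46.8 and 48.7 CPM in KO IPs, against 87.6, 94.5 and 80.3 CPM in KO inputs, and at 103, 123 and 119 CPM in control IPs, against 92.8, 89.0 and 113 CPM in control inputs. Its KO IPs lay below all other libraries. The difference was −1.13 ± 0.16 (SE, adjusted p = 2.82e-05, limma), the sign of ALKBH1 at a smaller size. LRWD1, which encodes a protein bound to the origin recognition complex, starts 121 bases from ALKBH4 on the opposite strand, and with A. It averaged 21.4 ± 2.15 CPM in KO IPs and 47.0 ± 2.44 CPM in KO inputs, and 38.6 ± 4.22 CPM in control IPs and 45.5 ± 1.88 CPM in control inputs (SD, n = 3 each). With a difference of −0.90 ± 0.18 (SE, adjusted p = 0.000852), LRWD1 also had the sign of its neighbour, while MIR5090, 879 bases from ALKBH4, had −0.12 ± 0.35 (adjusted p = 0.838). RPGRIP1L, a gene of the primary cilium 297 bases from FTO on the opposite strand, had 1 to 7 reads in a library and a difference of 0.79 ± 0.88 (adjusted p = 0.541). A lncRNA that overlaps the start of ALKBH6 on the same strand, 22 bases away, had read numbers equal to those of ALKBH6 in 7 of 12 libraries and 1 read apart in the others, so that ALKBH6 cannot be separated from it. For ALKBH1 and SLIRP the read numbers were equal in 0 of 12 libraries and up to 335 reads apart. For ALKBH4 and LRWD1 they were equal in 0 of 12 libraries and up to 140 reads apart. Neither pair thus had the near-equal numbers of ALKBH6 and its lncRNA. How far partly shared reads carry the values of ALKBH1 and ALKBH4 was not tested.

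**Figure D4:**
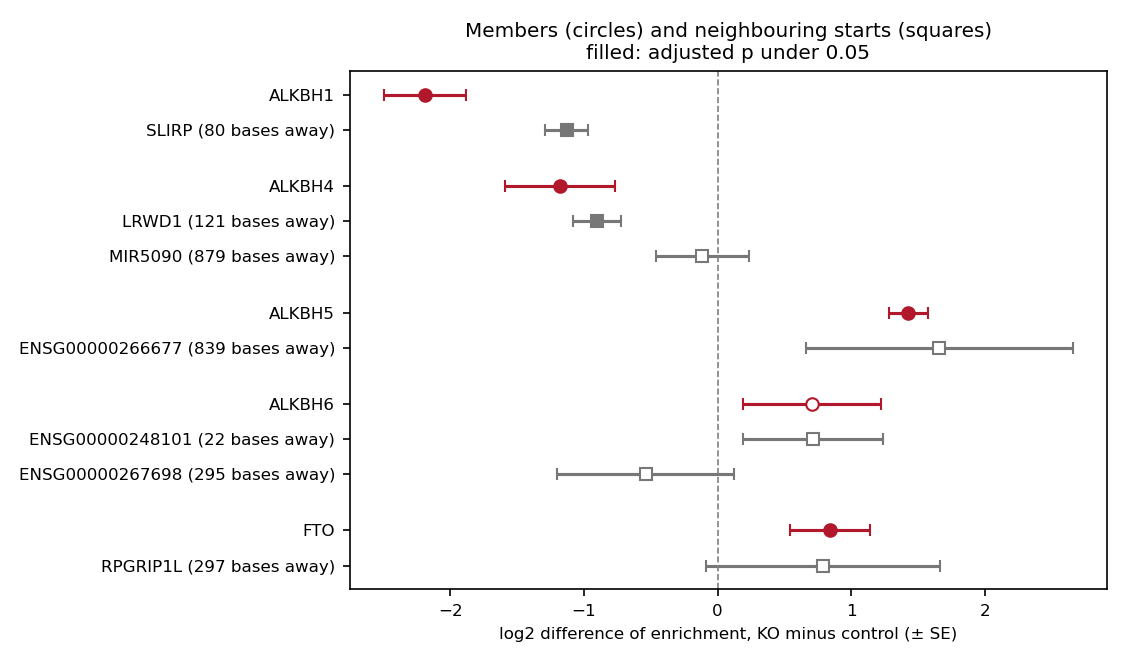
Difference of enrichment (KO minus control, log2, limma estimate ± SE) for 5 members, as red circles, and for other genes that start within 1000 bases of them, as grey squares. Filled symbols have an adjusted p under 0.05. ALKBH1 and SLIRP, and ALKBH4 and LRWD1, are called lower in both genes of the pair, while the starts near ALKBH5, ALKBH6 and FTO are not called.

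Genes whose levels followed those of a member most closely were found by the Pearson correlation of log2 CPM over the 12 libraries, among 9260 named genes with a mean log2 level of at least 3. The libraries fall into 4 groups, so these values describe a shared group pattern and carry no p-value. For ALKBH5 the closest were MKLN1 (r = 0.993), UBE4B (r = 0.992) and UAP1 (r = 0.990), and 429 genes had an r over 0.9. For ALKBH1 they included AMOTL2 (r = 0.972) and H3-3B (r = 0.972), with 132 genes over 0.9. For FTO they were PSMB2 (r = 0.914), C3orf62 (r = 0.912) and SLC39A9 (r = 0.900), and only 3 genes passed 0.9. FTO had 21 to 51 reads in a library, and counts of few reads lower such correlations, so these numbers of genes are not compared between members.

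Related gene groups were set beside the family in the same comparison. Of 53 other iron and 2-oxoglutarate oxygenases 46 had a row, and 5 were higher and 7 lower in the difference, which is 26.1% against 28.8% of all rows, with a median of −0.13. Centred on ribosomal protein mRNAs, 1 was higher and 19 lower, against 42.5% of all rows called. The collagen lysyl hydroxylases PLOD3 (−1.32 ± 0.19, adjusted p = 3.12e-05, limma) and PLOD1 (−1.41 ± 0.21, adjusted p = 5.86e-05) and the prolyl hydroxylase P3H3 (−1.51 ± 0.22, adjusted p = 4.47e-05) were lower, and the histone demethylase KDM5A was higher by 1.30 ± 0.22 (adjusted p = 0.00014). All 20 partners of alkylation repair and tRNA wobble modification had a row, with 1 higher and 4 lower (25.0%, median −0.34). With that centring 0 were higher and 12 lower, against 42.5% of all rows called. The count of 5 fell to 3 without control IP 3, control input 1 or control input 2. Among those lower were PCNA, the sliding clamp that ALKBH2 binds (−1.12 ± 0.13, adjusted p = 3.04e-06), CTU2, which thiolates tRNA (−1.03 ± 0.25, adjusted p = 0.00456), and the Elongator subunit ELP2 (−0.92 ± 0.27, adjusted p = 0.0147). PCNA and ELP2 were also called lower in the KO inputs, at −0.89 ± 0.09 (adjusted p = 1.98e-06) and −1.67 ± 0.19 (adjusted p = 7.22e-06). CTU2 was not called in the inputs (adjusted p = 0.180). The difference of ELP2 was not called without KO input 1 (−0.76, adjusted p = 0.0515). Its call was also lost without a mean-variance trend (adjusted p = 0.0531) and in limma-voom on the recovered reads (−0.90, adjusted p = 0.0520).

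Of 25 genes on a list for the supply of 2-oxoglutarate, the shared co-substrate of the family, and for metabolites that compete with it, 23 had a row, and 2 were higher and 14 lower (69.6% against 28.8% of all rows, median −0.62). Among rows with a mean log2 level of at least 3, 1 was higher and 13 lower of 21, against 44.9% of such rows called. Protein-coding rows also leaned lower, with 1225 higher and 2403 lower (30.1% called, median −0.18). Centred on ribosomal protein mRNAs, 0 were higher and 17 lower, against 42.5% of all rows called. The difference of enrichment was −1.63 ± 0.20 for FH, the fumarase (SE, adjusted p = 6.37e-06, limma), and −1.47 ± 0.25 for the isocitrate dehydrogenase IDH2 (adjusted p = 0.000179), and neither was called in the inputs. The aminotransferase GOT2 (−0.84 ± 0.16, adjusted p = 0.000448) was lower as well. All 12 m6A and m6Am methyltransferase genes had a row, with 3 higher and 3 lower (50.0%, median −0.37). With that centring 1 was higher and 7 lower, against the same 42.5% of all rows. Among rows with a mean log2 level of at least 3, 4 were higher and 4 lower of 11, against 44.9% of such rows. Without KO input 1 the count of 6 fell to 3. The adaptor RBM15B (1.11 ± 0.16, adjusted p = 2.84e-05) and its relative RBM15 (0.68 ± 0.21, adjusted p = 0.0214) were higher, while the catalytic subunit METTL3 (−0.67 ± 0.15, adjusted p = 0.00272) and the rRNA methyltransferase ZCCHC4 (−0.74 ± 0.19, adjusted p = 0.00657) were lower. RBM15 lost its call under that centring (0.11, adjusted p = 0.734) and without KO IP 2, KO input 1, control IP 2, control input 1 or control input 2 (0.57 to 0.63).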

How the data were processed

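The deposited table holds log2 CPM (reads scaled to library size by the authors) at the start region of each gene. The submitters' processing notes name edgeR 3.12.1, R 3.3.3, featureCounts, HISAT2 2.0.4, deepTools 3.0.2 and SAMtools 1.7, and the build hg38. Its window, strand setting, annotation and row filter were not given in the sources used here. With an added count that averaged 0.25, 100% of values were whole reads (tolerance 0.01), from which depth was taken. The printed CPM values are the log2 values put back on a linear scale, so they include that added count, and log2 changes understate those of genes with few reads. Column numbers were tied to groups only and are names. The 18 first-stage libraries are not analysed here.

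A limma 3.58.1 model (R 4.3.3) with 4 group means was fitted to all 12 libraries, with a mean-variance trend, no replicate block and Benjamini-Hochberg adjustment over 16009 rows. The scripts were tested on simulated data.

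The members, the related gene lists and the alternatives were chosen with earlier results of these data known. All members are named, and of each related list up to 4 genes with the smallest adjusted p in the difference. Neighbours are genes that start within 1000 bases, and similar genes are the 3 with the highest correlation. A few genes that these rules name are not reported here. Gene positions and start bases are from GENCODE 44 on hg38. Without molecular identifiers, reads can be copies of 1 molecule, so read numbers and their precision cover counting error only.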

Additional observations from a re-analysis of the deposited data

Results flagged for a closer look

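For 6 genes the antibody enrichment differed between KO and control cells by the test of the difference itself (limma, Benjamini-Hochberg adjusted p under 0.05). KO minus control enrichment on the log2 scale was −2.19 for ALKBH1 (−0.93 in KO cells and 1.26 in control cells), −1.18 for ALKBH4 (−1.11 in KO cells and 0.07 in control cells) and −0.91 for ALKBH3 (−0.37 in KO cells, or 0.25 when centred on ribosomal protein mRNAs, and 0.55 in control cells). It was 1.43 for ALKBH5 (2.06 in KO cells and 0.64 in control cells), 1.19 for ALKBH2 (1.20 in KO cells and 0.01 in control cells) and 0.84 for FTO (0.53 in KO cells and −0.31 in control cells, the second turning to 0.88 and the difference to 0.27 when centred on ribosomal protein mRNAs). Groups of 3 were too small for a test of single extreme values. KO input 3 gave the highest chi-square values between replicates, which are not corrected for depth. Leaving it out ended the call of FTO in the difference (0.69, adjusted p = 0.0988). Depth moved with these results, since the KO IPs held 2032714 reads on average and the control IPs 4283508, and its part in the differences was not tested.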

How the results depend on the processing

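Of 881 values of members under alternative settings, 381 kept the estimate by construction, since the setting did not touch the libraries compared or changed only the error. Of the other 500, 437 kept direction and side of the threshold, 26 were weaker, 4 stronger and 33 turned. The differences of ALKBH1, ALKBH2, ALKBH3 and ALKBH5 were called in all 19 alternatives that changed the fit. Centring on ribosomal protein mRNAs left 5 of 8 genes called in KO enrichment and called 8 rather than 4 in control enrichment. It turned ALKBH3 to 0.25 and ALKBH7 to 0.41 in KO enrichment, FTO to 0.88 and ALKBH7 to 0.90 in control enrichment, ALKBH7 to −0.49 in the difference, and FTO to −0.090 and ALKBH7 to −0.20 in the IP change. Of the related groups it raised the genes called in the difference to 20 of 46 other oxygenases (12 without it). For the repair and wobble partners it raised them to 12 of 20 (5 without it). The share of all rows called rose as well, to 42.5% (28.8% without it). Centring on the median of all rows ended the call of FTO in the difference (0.81, adjusted p = 0.0517, limma), and using only the libraries compared ended that in KO enrichment (adjusted p = 0.0860). Without a mean-variance trend 0 genes were called in the inputs, where the main count was 1, and 3 each of the repair partners and methyltransferases in the difference. The difference of ALKBH4 was called in 10 of 19 alternatives and that of FTO in 9 of 19. Limma-voom on the recovered reads, chosen after seeing the data, turned ALKBH8 to −0.019 in the inputs. Centring on ribosomal protein mRNAs moved every row by the same amount within a contrast. That amount was 0.62 in KO enrichment, 1.19 in control enrichment, −0.57 in the difference and −0.52 in the IP change. The causes of the other shifts were not tested.

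Leaving out 1 library gave 4 to 5 members called in the difference (6 with all), and 0 to 1 genes and 1177 to 2201 rows called in the inputs, with the lowest row count without control input 3. It turned uncalled values with these ranges. ALKBH7 ran from −0.40 to 0.10 in KO enrichment. In control enrichment ALKBH2 ran from −0.13 to 0.12, ALKBH4 from −0.16 to 0.23 and ALKBH7 from −0.51 to 0.0028. In the difference ALKBH7 ran from −0.21 to 0.38 and ALKBH8 from −0.41 to 0.082, MIR5090 ran from −0.34 to 0.15, and 3 to 7 repair partners and 3 to 7 methyltransferases were called. In the inputs ALKBH1 ran from −0.077 to 0.28, ALKBH4 from −0.045 to 0.12, ALKBH6 from −0.25 to 0.018, ALKBH7 from −0.062 to 0.53 and ALKBH8 from −0.29 to 0.20. A replicate block by column number called 5088 rows in the difference, against 4605 without it, and 6 members in both, and changed no call of a member. Same-numbered libraries correlated at −0.02 to 0.08 in their deviations, above 0 in 16 of 18 pairs and over 0.1 in 0. Their median was 0.03, against −0.02 for pairs with unlike numbers. The own number correlated best in 28 of 36 comparisons, and in every other group for 6 of 12 libraries. This hint of pairing is below the level at which the numbers were taken to pair libraries, and the main fit leaves it out. The planned count tests were not run, since the deposited values are log2 CPM, and a filter at a mean log2 level of 3 gave no value for ALKBH6 and ALKBH7.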
